A study of Homo sapiens with 16 samples.

Results

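The genes described here make cholesterol, control its synthesis, move it within the cell and export it. They were chosen by name, as a list of 34 symbols, with earlier results of these data known. Each symbol matched 1 of the 64792 gene identifiers in the deposited count table. All 34 passed the filter on low counts and were tested together with the other genes, 14690 in all. The list does not hold every gene of the pathway.

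Messenger RNA was sequenced from DU145, an established human prostate carcinoma line, in 16 libraries. The 4 groups of 4 libraries were cells given lactate and I-BET762 together, cells given lactate, cells given I-BET762, and control cells. I-BET762 is a small molecule that occupies the bromodomains of BET proteins, the readers of acetylated histones. According to the labels the replicates were independent, and no dose or duration is stated; in the libraries given both treatments the cell line field differs from the DU145 of their titles, which were followed. All results therefore concern 1 cell line.

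Cholesterol is built from acetyl-CoA through the mevalonate pathway, which ends in farnesyl diphosphate, and then through squalene and a series of sterol intermediates. The genes are controlled by the SREBP transcription factors, which SCAP carries out of the endoplasmic reticulum when sterols are scarce and which INSIG proteins hold there when sterols are plentiful. When oxysterols accumulate, the liver X receptors (LXR) raise the genes of cholesterol export. Prostate cancer cells are known for high rates of lipid and sterol synthesis.

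The promoters of the 5 genes that were higher with lactate both in the absence and in the presence of I-BET762 are shown because SREBP acts at promoters together with NF-Y, a factor that binds CCAAT boxes. SREBF2, the gene of the SREBP that favours cholesterol genes, is shown as the only one of the matched members with the sterol regulatory element core. Each sequence is the 250 bases before the RefSeq transcription start on build GRCh38.p14, on the strand of the gene. Capitals mark CCAAT on either strand (ATTGG on the printed strand) and the letters CACNCCAC.
MVD (chr16:88663092-88663341, minus strand): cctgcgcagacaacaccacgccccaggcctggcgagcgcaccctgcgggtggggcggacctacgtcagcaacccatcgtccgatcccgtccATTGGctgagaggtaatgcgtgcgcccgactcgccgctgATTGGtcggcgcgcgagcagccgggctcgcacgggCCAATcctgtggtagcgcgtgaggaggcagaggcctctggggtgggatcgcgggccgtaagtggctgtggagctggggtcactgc
TM7SF2 (chr11:65111622-65111871, plus strand): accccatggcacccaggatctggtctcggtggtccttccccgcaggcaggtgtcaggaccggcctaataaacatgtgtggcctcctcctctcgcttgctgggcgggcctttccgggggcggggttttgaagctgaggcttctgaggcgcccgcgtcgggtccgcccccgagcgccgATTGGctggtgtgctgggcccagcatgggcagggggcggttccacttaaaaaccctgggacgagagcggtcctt
MSMO1 (chr4:165327419-165327668, plus strand): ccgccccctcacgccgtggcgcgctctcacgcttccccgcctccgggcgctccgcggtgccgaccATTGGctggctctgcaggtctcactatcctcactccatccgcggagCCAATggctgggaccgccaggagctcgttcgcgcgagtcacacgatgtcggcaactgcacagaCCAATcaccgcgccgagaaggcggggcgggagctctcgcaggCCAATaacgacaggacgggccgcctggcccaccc
NSDHL (chrX:152830813-152831062, plus strand): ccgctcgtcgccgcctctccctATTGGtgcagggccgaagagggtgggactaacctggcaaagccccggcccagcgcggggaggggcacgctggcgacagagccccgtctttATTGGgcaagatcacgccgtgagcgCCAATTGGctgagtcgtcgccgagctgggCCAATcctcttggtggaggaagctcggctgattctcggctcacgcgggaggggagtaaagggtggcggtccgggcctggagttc
INSIG2 (chr2:118088221-118088470, plus strand): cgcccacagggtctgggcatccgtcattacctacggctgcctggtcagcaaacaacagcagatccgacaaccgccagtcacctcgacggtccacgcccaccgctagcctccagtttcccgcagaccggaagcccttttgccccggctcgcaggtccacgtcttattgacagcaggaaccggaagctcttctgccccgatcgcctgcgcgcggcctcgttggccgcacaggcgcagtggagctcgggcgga
SREBF2 (chr22:41832855-41833104, plus strand): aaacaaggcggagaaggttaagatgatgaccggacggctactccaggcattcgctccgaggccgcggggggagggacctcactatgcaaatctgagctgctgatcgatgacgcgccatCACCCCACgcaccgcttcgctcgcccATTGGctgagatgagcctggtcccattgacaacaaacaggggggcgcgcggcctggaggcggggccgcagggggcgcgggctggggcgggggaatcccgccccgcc

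RefSeq promoters were matched for 30 of the 34 members. For 27 of these 30, the bases after the start were found in a GENCODE transcript of the gene. NSDHL had 5 CCAAT letters in this window, MSMO1 had 4, MVD had 3, TM7SF2 and SREBF2 had 1 each and INSIG2 had 0. Searched on both strands, CCAAT was present in 18 of 30 member promoters (60.0%), against 33.04% of all 27305 promoters of the same length. The GC box GGGCGG was present in 26 of 30 member promoters (86.7%), against 42.31% of all promoters. The 27305 promoters were not limited to tested genes, whereas every member was tested, so the sets are unlike. The core TCACNCCAC was present in 1 of 30 member promoters, that of SREBF2, against 0.88% of all promoters. Its shorter form CACNCCAC, which lies within it, was present in 3 of 30 member promoters (INSIG1, ABCA1 and SREBF2), against 4.72% of all promoters. Of the 12 matched members that were higher with lactate than in control cells, 7 held CCAAT and 0 held CACNCCAC. These are letter matches in a fixed window and not measured binding sites. In GENCODE annotation of GRCh38 the gene of MVD (ENSG00000167508) spans chr16:88651935-88663161, TM7SF2 (ENSG00000149809) chr11:65111845-65116384, MSMO1 (ENSG00000052802) chr4:165327623-165343160, NSDHL (ENSG00000147383) chrX:152830967-152869729 and INSIG2 (ENSG00000125629) chr2:118088452-118110997.

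Libraries held between 10711859 counts (lactate replicate 1) and 17173584 counts, and all totals counted reads in genes. The epithelial genes KRT8 and KRT18, which a carcinoma line should hold, were at 737 to 956 and 781 to 926 CPM in control cells, where CPM, the usual normalised read count, is relative to the TMM-scaled library size. KLK3, the prostate antigen gene that DU145 is known to lack, had at most 0.1 CPM in any library, and the fibroblast gene DCN and the lymphocyte genes CD3E and MS4A1 had 0 counts. Of 13 fibroblast, leukocyte and endothelial markers, 4 were tested and COL1A1 and CD68 passed as higher with lactate, and the summed level of the 13 was 9.7 to 12.2 CPM in lactate libraries and 5.5 to 7.2 CPM in control libraries. Their part in the results was not tested. HEXIM1, which BET inhibitors are known to raise, was at 149, 89.6, 113 and 114 CPM in I-BET762 libraries 1 to 4, against 75.7, 135, 70 and 77.4 CPM in control libraries 1 to 4. Replicate 2 of I-BET762 lay below the other 3 I-BET762 libraries and replicate 2 of control lay above the other 3 control libraries, so HEXIM1 went against the labels of these libraries, and results with I-BET762 are also given without both.

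Lactate raised 13 members and lowered 1 relative to control cells, with the largest differences in MVD of the mevalonate pathway and TM7SF2 of the sterol steps. The 14 called members are 41.2% of the list, and 23.7% of all tested genes passed the same threshold (13.6% higher and 10.1% lower). The threshold was an adjusted p under 0.05 in edgeR's quasi-likelihood test with Benjamini-Hochberg adjustment over all tested genes. The median log2 fold change of the members was 0.18, against 0.03 for all tested genes, and 26 members had positive values and 8 had negative values. In bulk RNA, a change in the cells present and a change in RNA per cell cannot be told apart.

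**Figure D1:**
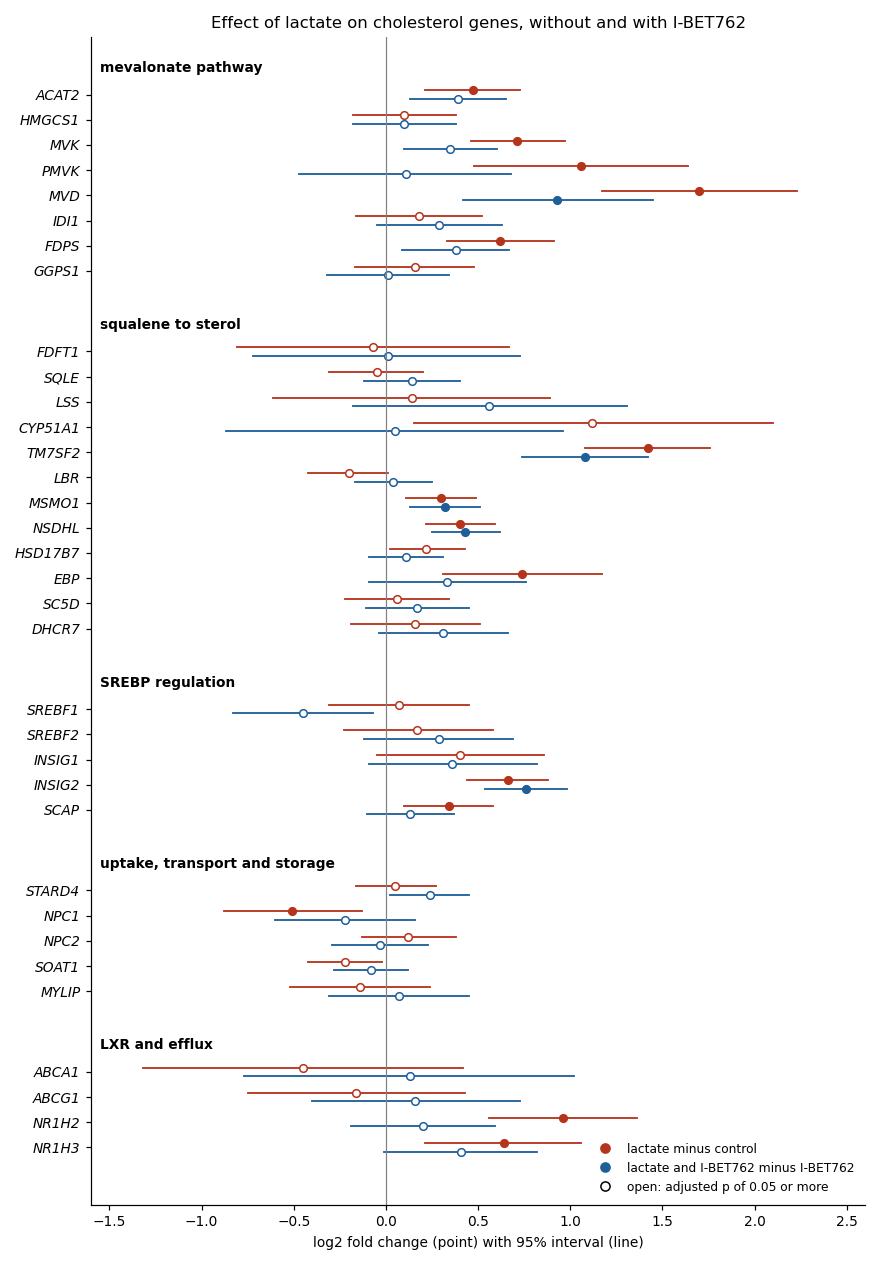
Log2 fold changes with 95% intervals for all 34 members, grouped by role, for lactate against control (red) and for lactate with I-BET762 against I-BET762 (blue); filled points passed an edgeR adjusted p under 0.05. TM7SF2, MVD, INSIG2, NSDHL and MSMO1 are filled in both colours.

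In the mevalonate pathway, 5 of 8 enzymes rose with lactate (ACAT2, MVK, PMVK, MVD and FDPS), all 8 had positive values and the median log2 fold change was 0.55. MVD makes isopentenyl diphosphate by decarboxylation. It was at 270, 184, 201 and 219 CPM in lactate libraries 1 to 4, against 72.3, 91, 38.4 and 68.2 CPM in control libraries 1 to 4. Every lactate library was above the highest control library, so the groups did not overlap. The difference was 3.24-fold (log2 fold change 1.70, SE 0.24, edgeR adjusted p = 0.000407).

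MVK, the first of the pair of kinases that phosphorylate mevalonate, was at 77.4, 71.6, 66.7 and 79.8 CPM in lactate libraries, against 45.3, 49.8, 35.5 and 49.6 CPM in control libraries. These groups did not overlap, and MVK rose by 0.71 on the log2 scale (SE 0.12, edgeR adjusted p = 0.000922). PMVK, the kinase that follows it, was at 121, 33.9, 46.9 and 68 CPM in lactate libraries, against 30.2, 28.9, 29.2 and 40.6 CPM in control libraries. Lactate replicate 1 was far above the other lactate libraries and replicate 2 lay within the control range, so the groups overlapped. The log2 fold change of PMVK was 1.06 (edgeR adjusted p = 0.011), and 0.62 without lactate replicate 1 (edgeR adjusted p = 0.0175).

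FDPS, which makes farnesyl diphosphate, was at 1878, 1147, 1183 and 1557 CPM in lactate libraries, against 904, 856, 989.7 and 999 CPM in control libraries. Replicates 1 and 4 of lactate were the highest, the groups did not overlap, and FDPS rose by 0.62 on the log2 scale (edgeR adjusted p = 0.00467). ACAT2, the cytosolic thiolase that starts the pathway, was at 699, 503, 465 and 565 CPM in lactate libraries, against 405, 452, 379 and 374 CPM in control libraries. Its groups did not overlap and its log2 fold change was 0.47 (edgeR adjusted p = 0.0112). ACAT2 shares 52.3% of its exon bases with genes on the opposite strand and FDPS shares 18.6%, and the strand setting of the counting is not given in the sources used here, so part of these counts could belong to the partners. HMGCS1, which condenses acetoacetyl-CoA and acetyl-CoA, IDI1, which isomerises isopentenyl diphosphate, and GGPS1, which makes geranylgeranyl diphosphate, did not pass. Their log2 fold changes were 0.10 (95% interval -0.18 to 0.38), 0.18 (-0.16 to 0.52) and 0.16 (-0.17 to 0.48) in that order. FDPS has 8 annotated pseudogenes and GGPS1 shares 37.3% of its exon bases with TBCE on the same strand, which makes these counts uncertain too.

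**Figure D2:**
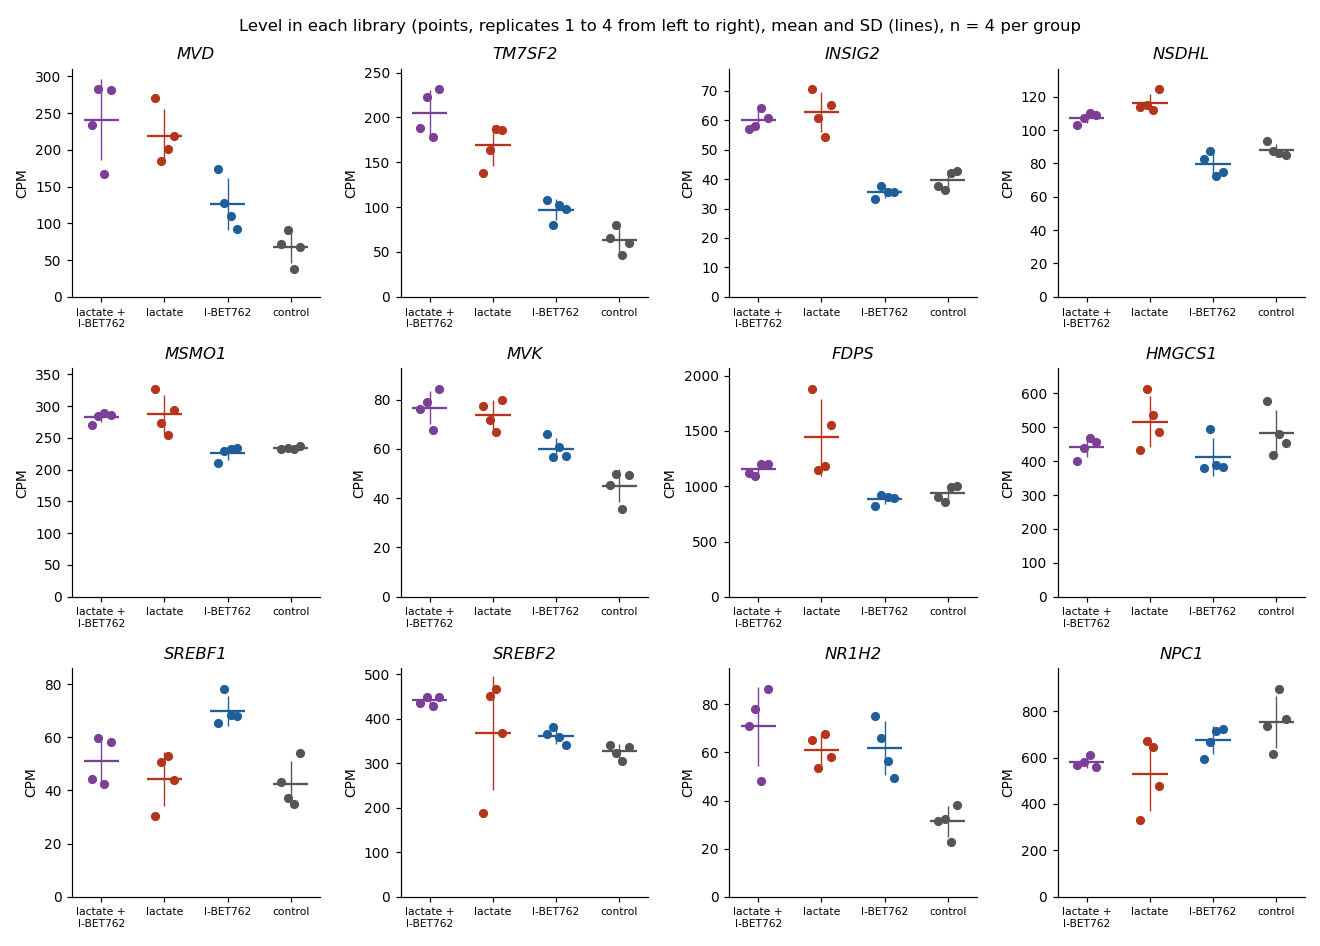
CPM of 12 members in each library (points), with group means and SDs (lines, n = 4), from left to right for lactate with I-BET762, lactate, I-BET762 and control. Both lactate groups lie above the control group in MVD, TM7SF2, INSIG2, NSDHL and MSMO1 without overlap, and lactate replicate 1 is the lowest lactate library in SREBF2, SREBF1, NPC1 and HMGCS1.

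From squalene to cholesterol, 4 of 12 enzymes rose with lactate (TM7SF2, MSMO1, NSDHL and EBP) and none fell. TM7SF2, a reductase of the sterol ring, was at 138, 164, 187 and 186 CPM in lactate libraries, against 65.9, 80.6, 46.1 and 59.6 CPM in control libraries. The groups did not overlap, and the difference was 2.68-fold (log2 fold change 1.42, SE 0.16, edgeR adjusted p = 8.82e-05). LBR, which carries the same reductase activity and also anchors chromatin at the inner nuclear membrane, was at 140.5, 186, 168 and 160 CPM in lactate libraries, against 185, 211, 191 and 169 CPM in control libraries. These ranges overlapped, and its log2 fold change of -0.20 did not pass (95% interval -0.42 to 0.01, edgeR adjusted p = 0.125).

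MSMO1 and NSDHL act in sequence to remove methyl groups from the sterol ring. NSDHL was at 114, 115, 112 and 124 CPM in lactate libraries, against 93.4, 87.2, 86.3 and 84.8 CPM in control libraries, and MSMO1 was at 326, 274, 255 and 293 CPM in lactate libraries, against 232, 234, 232 and 237 CPM in control libraries. In both genes every lactate library was above every control library, by small margins in MSMO1. NSDHL rose by 0.40 (edgeR adjusted p = 0.00428) and MSMO1 by 0.30 (edgeR adjusted p = 0.0228) on the log2 scale. The call of MSMO1 was lost without control replicate 1 (edgeR adjusted p = 0.0556), control replicate 3 (0.0621) or lactate replicate 4 (0.0558), with log2 fold changes of 0.28 to 0.29. It was also lost without control replicate 2 and I-BET762 replicate 2 together (edgeR adjusted p = 0.0562). With only the lactate and control libraries fitted, the edgeR adjusted p was 0.165. MSMO1 passed in 20 of 26 alternative settings, with edgeR adjusted p up to 0.223. The call of NSDHL was lost with no filter on low counts (edgeR adjusted p = 0.06), with GC content and exon length corrected (0.26, edgeR adjusted p = 0.077) and with only the lactate and control libraries fitted (0.0633).

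EBP, a sterol isomerase, was at 553, 240, 238 and 379 CPM in lactate libraries, against 222, 199, 193 and 229 CPM in control libraries. The groups did not overlap, but replicates 1 and 4 of lactate were far above replicates 2 and 3. Its log2 fold change was 0.74 (edgeR adjusted p = 0.0143), and 0.43 without lactate replicate 1 (edgeR adjusted p = 0.0212). LSS and CYP51A1 showed the opposite order of the same lactate libraries. LSS, which closes squalene epoxide into lanosterol, was at 4.8, 31.7, 35.8 and 22.6 CPM in lactate libraries, against 20.2, 24.3, 21.4 and 21.2 CPM in control libraries. CYP51A1, which demethylates lanosterol, was at 2.3, 13.5, 17.6 and 4.8 CPM in lactate libraries, against 5.5, 4.2, 4 and 4.2 CPM in control libraries.

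In both genes lactate replicate 1 was below every control library and replicates 2 and 3 were above every control library. LSS had a log2 fold change of 0.14 (edgeR adjusted p = 0.792) with all libraries and 0.47 (edgeR adjusted p = 0.0393) without lactate replicate 1. For CYP51A1 these values were 1.12 (edgeR adjusted p = 0.075) and 1.43 (edgeR adjusted p = 0.0101). DHCR7, a late reductase on the way to cholesterol, was also lowest in lactate replicate 1, at 438, 886, 832 and 704 CPM in lactate libraries, against 650.2, 741, 562 and 610.5 CPM in control libraries. Its log2 fold change was 0.16 (edgeR adjusted p = 0.485) with all libraries and 0.33 (edgeR adjusted p = 0.0227) without lactate replicate 1. After a correction of each library for the GC content of transcripts, the signs of DHCR7 (-0.08, edgeR adjusted p = 0.73) and LSS (-0.18, 0.727) turned and CYP51A1 was at 1.27 (0.07). CYP51A1 shares 79.4% of its exon bases with other annotated genes on the same strand, so its counts are uncertain.

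The other enzymes of these steps did not pass. HSD17B7, a ketosteroid reductase with 2 annotated pseudogenes, had a log2 fold change of 0.22 (edgeR adjusted p = 0.083), and its lactate libraries at 50.6 to 61 CPM lay above its control libraries at 42.3 to 49.1 CPM. SQLE, the squalene epoxidase, had a log2 fold change of -0.05 (95% interval -0.31 to 0.20), with 259.7 to 335 CPM in lactate libraries and 273 to 352 CPM in control libraries. SC5D, a sterol desaturase, had a log2 fold change of 0.06 (-0.22 to 0.34). FDFT1, the squalene synthase, had only 6 to 16 counts per library, so that a difference smaller than its 95% interval of -0.81 to 0.67 was not detectable at this depth. Whether these low counts reflect the RNA level or the way reads were counted was not tested.

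Among the 5 regulators of SREBP, INSIG2 and SCAP rose and SREBF1, SREBF2 and INSIG1 did not pass. INSIG2, which retains SCAP in the endoplasmic reticulum, was at 70.5, 60.8, 54.4 and 65.2 CPM in lactate libraries, against 37.5, 36.3, 42.2 and 42.6 CPM in control libraries. Every lactate library was above every control library, and the difference was 1.58-fold (log2 fold change 0.66, SE 0.10, edgeR adjusted p = 0.000637). INSIG1, its paralog and itself a known SREBP target, was at 511, 356, 219.7 and 263 CPM in lactate libraries, against 291, 274, 225 and 229 CPM in control libraries. Replicates 1 and 2 of lactate were above all controls and replicate 3 was below them. The log2 fold change of INSIG1 was 0.40 (edgeR adjusted p = 0.161), 0.13 without lactate replicate 1 (edgeR adjusted p = 0.594) and 0.56 without lactate replicate 3 (edgeR adjusted p = 0.0437).

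SCAP, the escort of SREBP, was at 84.8, 74, 78.8 and 86.1 CPM in lactate libraries, against 61, 73.4, 53.1 and 69 CPM in control libraries. The groups were separated by less than 1 CPM, with lactate replicate 2 next to control replicate 2. Its log2 fold change was 0.34 (edgeR adjusted p = 0.0369), and -0.09 after correction for GC content (edgeR adjusted p = 0.567), which turned its sign. The call was also lost without control replicate 1 (edgeR adjusted p = 0.093), control replicate 3 (0.13) or lactate replicate 4 (0.0969), and SCAP passed in 14 of 26 alternative settings.

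SREBF2 was at 189, 451, 467 and 368 CPM in lactate libraries, against 342, 323, 304 and 338 CPM in control libraries. Lactate replicate 1 was far below and the other 3 lactate libraries were above every control library. The log2 fold change of SREBF2 was 0.17 (edgeR adjusted p = 0.504) with all libraries, 0.39 without lactate replicate 1 (edgeR adjusted p = 0.004) and -0.05 after GC correction (edgeR adjusted p = 0.848). SREBF1, the gene of the SREBP that favours fatty acid genes, was at 30.2, 50.6, 52.9 and 43.8 CPM in lactate libraries, against 43.3, 37.2, 35 and 54 CPM in control libraries. These ranges overlapped, and the log2 fold change was 0.07 (edgeR adjusted p = 0.791). After GC correction it was -0.54 (edgeR adjusted p = 0.0178), so the direction of SREBF1 depended on that step.

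In uptake, transport and storage, 1 of 5 members fell and none rose. NPC1, the membrane protein that exports cholesterol from lysosomes, was at 329.7, 670.3, 645 and 478 CPM in lactate libraries, against 735, 617, 895 and 766 CPM in control libraries. The groups overlapped, since lactate replicates 2 and 3 were above control replicate 2. NPC1 fell by 0.51 on the log2 scale (SE 0.17, edgeR adjusted p = 0.0433). The call was lost without lactate replicate 1 (log2 fold change -0.34, edgeR adjusted p = 0.0574), and NPC1 passed in 11 of 26 alternative settings.

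NPC2, its soluble partner, was at 163 to 213 CPM in lactate libraries and 141 to 193 CPM in control libraries (log2 fold change 0.12, edgeR adjusted p = 0.457). SOAT1, which esterifies cholesterol for storage, was at 156 to 197 CPM in lactate libraries and 193 to 226 CPM in control libraries (log2 fold change -0.22, edgeR adjusted p = 0.0869). STARD4, a soluble sterol carrier, had a log2 fold change of 0.05 (95% interval -0.16 to 0.27). MYLIP, a ubiquitin ligase that is an LXR target and degrades lipoprotein receptors, was at 34.6, 25.8, 22.8 and 20.5 CPM in lactate libraries, against 29.4, 37.4, 24.4 and 23 CPM in control libraries. Its ranges overlapped, and its log2 fold change of -0.14 (edgeR adjusted p = 0.574) was 0.01 without control replicate 2.

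Both LXR genes rose with lactate, and neither export gene passed. NR1H2, which encodes LXR beta, was at 65.1, 53.4, 67.5 and 58.2 CPM in lactate libraries, against 31.6, 32.5, 22.9 and 38.3 CPM in control libraries. The groups did not overlap, and the difference was 1.95-fold (log2 fold change 0.96, SE 0.18, edgeR adjusted p = 0.00232). NR1H3, which encodes LXR alpha, was at 9.4, 5.7, 6 and 9.2 CPM in lactate libraries, against 4.1, 5.7, 4.9 and 4.7 CPM in control libraries. Lactate replicate 2 and control replicate 2 were within 0.1 CPM of each other.

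NR1H3 had a log2 fold change of 0.64 (edgeR adjusted p = 0.027), and the call was lost without lactate replicate 1 (edgeR adjusted p = 0.0587), lactate replicate 4 (0.0955), control replicate 1 (0.0771) or control replicate 3 (0.0644), with log2 fold changes of 0.52 to 0.64. ABCA1, which loads cholesterol onto lipid-poor apolipoprotein, was at 1.5, 5.1, 5.2 and 2.8 CPM in lactate libraries, against 4.8, 2.7, 7.9 and 4.9 CPM in control libraries. ABCG1, which exports sterol to mature lipoprotein particles, was at 1.3, 1.8, 1.8 and 0.9 CPM in lactate libraries, against 1.4, 1.4, 2.1 and 1.7 CPM in control libraries. Both transporters were low and their groups overlapped. Their log2 fold changes were -0.45 for ABCA1 (95% interval -1.32 to 0.42) and -0.16 for ABCG1 (-0.75 to 0.43).

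The base composition and length of transcripts moved with the groups. The rank correlation of each library's deviation from the mean of all libraries with GC content, across all tested genes, was -0.01 to 0.33 in the lactate libraries and -0.56 to -0.30 in the control libraries. With exon length it was -0.40 and -0.42 in lactate replicates 1 and 4, 0.24 and 0.10 in lactate replicates 2 and 3, and 0.03 to 0.27 in the control libraries. Across the 34 members the lactate log2 fold change had a rank correlation of 0.41 with GC content and -0.55 with exon length, against 0.44 and -0.34 across all tested genes. Genes are not independent replicates, and these values are descriptive.

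After a correction for GC content in each library, 12 members passed for lactate against control (11 higher and 1 lower), of which 10 were among the 14 called without it. The share of all tested genes called after this correction is not given here. MVD kept a log2 fold change of 1.09 (edgeR adjusted p = 0.0019) and TM7SF2 0.85 (edgeR adjusted p = 0.00108). INSIG2, whose transcripts have the lowest GC content of the members at 37.3%, had 0.79 (edgeR adjusted p = 0.000141), and MSMO1 at 38.6% GC had 0.44 (edgeR adjusted p = 0.00389). NR1H2 dropped to 0.44 (edgeR adjusted p = 0.0302) and MVK to 0.36 (edgeR adjusted p = 0.0319). PMVK (edgeR adjusted p = 0.0839), SCAP (0.567), NR1H3 (0.303) and NPC1 (0.0726) no longer passed, and HSD17B7 (higher) and SREBF1 (lower) newly passed. With exon length corrected as well, NSDHL was also lost (0.26, edgeR adjusted p = 0.077) and EBP was near the threshold (0.48, 0.047). PMVK dropped to 0.46 (edgeR adjusted p = 0.118) and NPC1 was at -0.35 (0.0582). MVD, TM7SF2 and INSIG2 still passed, with log2 fold changes of 1.18, 0.84 and 0.75 in that order.

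**Figure D3:**
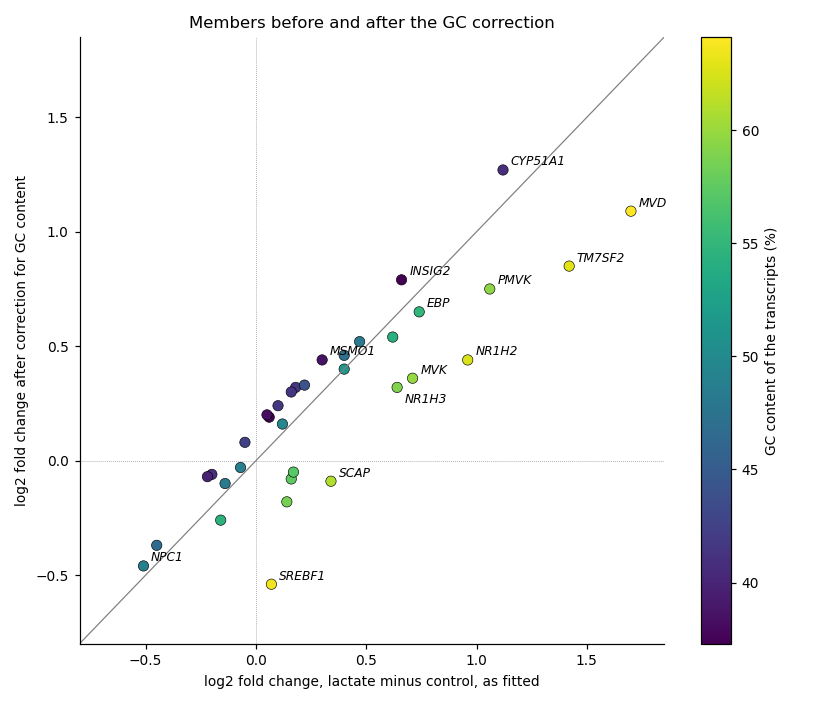
Log2 fold changes of the 34 members for lactate against control as fitted (horizontal axis) and after GC correction (vertical axis), coloured by the GC content of the transcripts in percent; the line marks equal values. GC-rich members such as MVD, TM7SF2, NR1H2, SCAP and SREBF1 lie below the line, and GC-poor members such as INSIG2 and MSMO1 lie above it.

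Of the 14 calls for lactate against control, 5 passed in all 26 alternative settings (MVD, TM7SF2, INSIG2, MVK and NR1H2). These were also the 5 that passed when only the lactate and control libraries were fitted. Without lactate replicate 1, 16 members were higher and 0 lower, 12 of them among the 14, with LSS, CYP51A1, SREBF2 and DHCR7 added and NPC1 and NR1H3 lost. The share of all tested genes called without this library is not given here.

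In the presence of I-BET762, lactate raised 5 members and lowered none, relative to I-BET762 alone. This is 14.7% of the list, and 4.9% of all tested genes passed (3.34% higher and 1.57% lower). The members were TM7SF2, INSIG2, NSDHL, MVD and MSMO1, and each had also risen without the inhibitor. The median log2 fold change of the members was 0.18, against 0.00 for all tested genes, and 30 members had positive values. This comparison shares no library with lactate against control. Across the 34 members the sign was the same in 26 (76.5%) and Pearson's r was 0.66, against 74% and 0.67 across all tested genes, values close to those of the members.

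INSIG2 was at 57.1, 58.2, 64.3 and 60.9 CPM with both treatments, against 33.1, 37.6, 35.6 and 35.7 CPM with I-BET762 alone. TM7SF2 was at 189, 223, 178 and 231 CPM with both treatments, against 108, 80.2, 102 and 97.8 CPM with I-BET762 alone. NSDHL was at 103, 107, 110 and 109 CPM with both treatments, against 82.8, 87.4, 72.6 and 74.8 CPM with I-BET762 alone. In these 3 genes the groups did not overlap. The log2 fold changes were 0.76 for INSIG2 (SE 0.10, edgeR adjusted p = 0.000529), 1.08 for TM7SF2 (SE 0.16, edgeR adjusted p = 0.000751) and 0.43 for NSDHL (SE 0.09, edgeR adjusted p = 0.00835).

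MVD was at 234, 282, 167 and 282 CPM with both treatments, against 174, 127, 111 and 92.6 CPM with I-BET762 alone. Replicate 3 of the combined treatment lay below I-BET762 replicate 1, so the groups overlapped. MSMO1 was at 271, 285, 289.5 and 286 CPM with both treatments, against 211, 229, 233 and 233 CPM with I-BET762 alone, without overlap. MVD had a log2 fold change of 0.93 (edgeR adjusted p = 0.0307) and MSMO1 of 0.32 (edgeR adjusted p = 0.0418). Without control replicate 2 and I-BET762 replicate 2, only INSIG2, TM7SF2 and NSDHL passed, with MVD at 0.94 (edgeR adjusted p = 0.0629) and MSMO1 at 0.33 (edgeR adjusted p = 0.0923).

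Leaving out single libraries gave 3 to 12 calls, with 3 without replicate 2, 3 or 4 of I-BET762 or replicate 1, 2 or 4 of the combined treatment. The 12 calls were without lactate replicate 1, which enters this comparison only through the shared scaling, filter and estimate of spread. INSIG2 and TM7SF2 passed in all 26 alternative settings, NSDHL in 25, MVD in 19 and MSMO1 in 13. MVK, FDPS and ACAT2 had higher values in every library given both treatments than in every library given I-BET762 alone, with log2 fold changes of 0.35 (edgeR adjusted p = 0.0892), 0.38 (0.111) and 0.39 (0.066) in that order, and did not pass. SREBF1 was at 44.3, 59.9, 42.4 and 58.1 CPM with both treatments, against 65.4, 78.1, 68.5 and 67.9 CPM with I-BET762 alone. The groups did not overlap, and the log2 fold change was -0.45 (edgeR adjusted p = 0.15), or -0.68 after GC correction (edgeR adjusted p = 0.00645).

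The other members of the list did not pass in the presence of I-BET762. SREBF2 was at 430 to 449.6 CPM with both treatments and 341 to 383 CPM with I-BET762 alone (log2 fold change 0.29, edgeR adjusted p = 0.432). Its groups did not overlap. Without lactate replicate 1 it passed at 0.30 (edgeR adjusted p = 0.0201), and with only the compared groups fitted at 0.28 (edgeR adjusted p = 0.00656). After GC correction SREBF2 did not pass (0.18, edgeR adjusted p = 0.603). INSIG1 was at 252 to 367 CPM with both treatments and 203 to 287 CPM with I-BET762 alone (log2 fold change 0.36, edgeR adjusted p = 0.365). NR1H3 was at 7.2 to 8 CPM with both treatments and 4.5 to 7.2 CPM with I-BET762 alone (log2 fold change 0.41, edgeR adjusted p = 0.251). These 3 regulators had positive values, and the NR1H3 and INSIG1 groups overlapped. MYLIP (0.07), ABCA1 (0.13) and ABCG1 (0.16) had log2 fold changes near 0 with 95% intervals that include it.

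I-BET762 alone raised 1 member, NR1H2, relative to control cells. This is 2.94% of the list, and 0.442% of all tested genes passed, all of them higher. NR1H2 was at 75.2, 65.8, 56.4 and 49.5 CPM in I-BET762 libraries, against 31.6, 32.5, 22.9 and 38.3 CPM in control libraries. The groups did not overlap (log2 fold change 0.98, SE 0.18, edgeR adjusted p = 0.0473). This call was near the threshold, and was lost after GC correction (0.57, edgeR adjusted p = 0.362) and without control replicate 2 and I-BET762 replicate 2 (0.96, edgeR adjusted p = 0.0714). It was also lost in 12 of the 16 settings that leave out 1 library, with edgeR adjusted p up to 0.217. In the other direction, 6 members passed without lactate replicate 1 (NR1H2, MVD, CYP51A1, TM7SF2, SREBF1 and SCAP), 4 without control replicate 4, and 3 with the replicate number as a block (NR1H2, MVD and SREBF1). The share of all tested genes called in these settings is not given here, so these counts describe the settings and not the members.

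A further 6 members had an unadjusted p under 0.05 and did not pass. With NR1H2 these are 20.6% of the members, and 11.4% of all tested genes had an unadjusted p under 0.05. SREBF1 was at 65.4, 78.1, 68.5 and 67.9 CPM in I-BET762 libraries, against 43.3, 37.2, 35 and 54 CPM in control libraries, with no overlap, and its log2 fold change was 0.72 (edgeR adjusted p = 0.0637). CYP51A1 was at 18, 12.5, 11.8 and 8.8 CPM in I-BET762 libraries, against 5.5, 4.2, 4 and 4.2 CPM in control libraries (log2 fold change 1.51, edgeR adjusted p = 0.112). For MVD the log2 fold change was 0.90 (edgeR adjusted p = 0.0782), for TM7SF2 0.62 (0.0694), for SCAP 0.43 (0.072) and for MVK 0.42 (0.0894). These values were positive in all 6 genes, and the TM7SF2 groups overlapped. DESeq2 called the same 6 in addition to NR1H2, and 3.69% of all tested genes (3.6% higher and 0.0885% lower), with DESeq2 adjusted p of 0.00642 for SREBF1 to 0.0227 for MVK.

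With both treatments, no member differed from lactate alone, and no gene of the 14690 passed (0%). At an unadjusted p under 0.05 there were 4 members (FDPS, PMVK, EBP and SCAP), 11.8% of the list, and 2294 genes, 15.6% of all tested genes. DESeq2 called 0 members and 103 genes (0.701%). The median log2 fold change of the members was 0.09, against 0.00 for all tested genes. FDPS was at 1116, 1096, 1201 and 1199 CPM with both treatments, against 1878, 1147, 1183 and 1557 CPM with lactate alone, and its log2 fold change was -0.32 (95% interval -0.61 to -0.03, edgeR adjusted p = 0.287). PMVK and EBP had log2 fold changes of -0.63 (-1.21 to -0.05) and -0.42 (-0.85 to 0.01), and in all 3 genes lactate replicate 1 was the highest of the lactate libraries. The interval of EBP includes 0 although its unadjusted p was under 0.05, so the intervals do not match the test exactly.

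With both treatments 11 members were higher and 0 lower than in control cells (32.4% of the list, and 20.7% of all tested genes, 13% higher and 7.72% lower). This comparison shares its control libraries with lactate against control and its treated libraries with the comparison against I-BET762. TM7SF2 was at 205 ± 25.8 CPM with both treatments and 63.0 ± 14.3 CPM in control cells (SD, n = 4 each, log2 fold change 1.70, edgeR adjusted p = 1.37e-05). MVD was at 241 ± 54.7 CPM with both treatments and 67.5 ± 21.8 CPM in control cells (log2 fold change 1.84, edgeR adjusted p = 0.000208). The other called members were MVK, NR1H2, INSIG2, SCAP, CYP51A1, NSDHL, NR1H3, MSMO1 and DHCR7, with log2 fold changes of 0.28 for MSMO1 to 1.55 for CYP51A1.

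DHCR7 and CYP51A1 passed here and not with lactate alone. Set directly against lactate alone, both treatments gave log2 fold changes of 0.33 in DHCR7 (edgeR adjusted p = 0.327) and 0.43 in CYP51A1 (edgeR adjusted p = 0.599), which did not pass. DHCR7 was at 908, 936, 858 and 896 CPM with both treatments, against 650.2, 741, 562 and 610.5 CPM in control cells, without overlap (log2 fold change 0.49, edgeR adjusted p = 0.0399). CYP51A1 was at 12, 18.7, 7 and 15 CPM with both treatments, against 5.5, 4.2, 4 and 4.2 CPM in control cells, also without overlap (log2 fold change 1.55, edgeR adjusted p = 0.021). Leaving out single libraries gave 6 to 17 calls in this comparison, with 6 without control replicate 3 or replicate 2 or 4 of the combined treatment, 7 without its replicate 3 and 17 without lactate replicate 1. TM7SF2, MVD, INSIG2 and NR1H2 passed in all 26 alternative settings, CYP51A1 in 21 and DHCR7 in 14.

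After GC correction, 8 of these 11 calls remained. SCAP (0.09, edgeR adjusted p = 0.646), NR1H3 (0.31, 0.394) and DHCR7 (0.26, 0.296) no longer passed. The log2 fold change dropped to 1.11 in MVD, 1.06 in TM7SF2, 0.56 in NR1H2 and 0.37 in MVK, which still passed. Without control replicate 2 and I-BET762 replicate 2, CYP51A1 (1.53, edgeR adjusted p = 0.0538) and MSMO1 (0.28, 0.0652) no longer passed.

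The effect of lactate did not differ detectably between cells with and without I-BET762. In the test of that difference, 0 members and 0 of all tested genes (0%) passed in edgeR or DESeq2, with a smallest edgeR adjusted p of 0.7 among the members. At an unadjusted p under 0.05 there were 5 members (NR1H2, PMVK, MVD, MVK and SREBF1), 14.7% of the list, and 894 genes, 6.09% of all tested genes. All 5 had negative values, from -0.95 in PMVK (95% interval -1.77 to -0.14) to -0.36 in MVK (-0.72 to -0.01). For MVD the difference of log2 fold changes was -0.76 (-1.49 to -0.03), and for NR1H2 -0.76 (-1.32 to -0.21). INSIG2, NSDHL and MSMO1 had differences of 0.10 (-0.21 to 0.41), 0.03 (-0.23 to 0.29) and 0.03 (-0.24 to 0.30) in that order.

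Levels of different members were compared per kilobase of exon. In control cells the highest were FDPS at 252 ± 18.6 CPM per kb, DHCR7 at 154 ± 18.3, IDI1 at 110 ± 18.1, HMGCS1 at 103 ± 14.5 and ACAT2 at 93.6 ± 8.22 CPM per kb (SD, n = 4). IDI1, HMGCS1 and ACAT2 did not differ beyond their spread. The lowest were FDFT1 at 0.135 ± 0.0524, ABCG1 at 0.268 ± 0.0559, ABCA1 at 0.448 ± 0.187 and NR1H3 at 1.07 ± 0.142 CPM per kb. For FDFT1, whether this value comes from the way reads were counted was not tested. The transcript of LXR beta was the more abundant of the receptors, with NR1H2 at 16.3 ± 1.72 CPM per kb in lactate cells and 8.35 ± 1.69 CPM per kb in control cells, and NR1H3 at 1.67 ± 0.439 CPM per kb in lactate cells. TM7SF2 was at 49.5 ± 6.74 CPM per kb in lactate cells and 18.5 ± 4.2 CPM per kb in control cells. LBR, with the same reductase activity, was at 31.2 ± 3.63 CPM per kb in lactate cells and 35.9 ± 3.33 CPM per kb in control cells. The levels of both genes are not corrected for GC content, and after GC correction the lactate log2 fold changes were 0.85 for TM7SF2 and -0.06 for LBR.

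**Figure D4:**
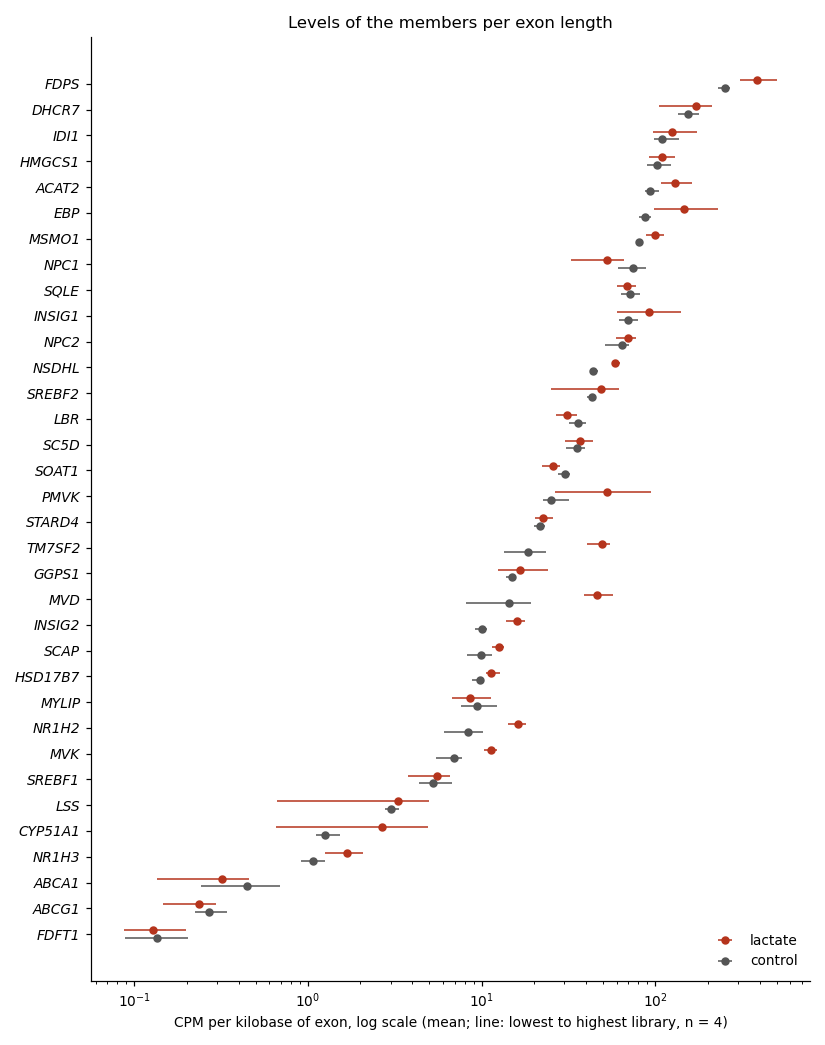
Level of each member in CPM per kilobase of exon (log axis) with lactate (red) and in control cells (grey), sorted by the control level; points are means of 4 libraries and lines run from the lowest to the highest library. Levels run from FDPS at 252 down to FDFT1 at 0.135 CPM per kb in control cells, and the lines do not overlap in TM7SF2, MVD, INSIG2 and NR1H2 among others.

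Other genes of sterol and lipid metabolism are given beside the 23.7% of all tested genes that passed for lactate against control. Of 12 tested genes of the isoprenoid branch, 0 rose and 2 fell (16.7% called), among them ZMPSTE24, which processes prelamin A (log2 fold change -0.47, edgeR adjusted p = 0.00245). Of 9 genes of SREBP processing, 0 rose and 2 fell (22.2%), the ubiquitin ligase RNF139 (-0.35, edgeR adjusted p = 0.015) and the Golgi tether PAQR3 (-0.38, 0.031). Of 19 tested genes of sterol transport and esters, 2 rose and 4 fell (31.6%), among them the sterol carriers GRAMD1B (-0.92, edgeR adjusted p = 0.0118) and OSBPL6 (-0.49, 0.0171), which fell, and OSBPL5 (1.28, 0.019), which rose. Of 5 tested oxysterol and LXR partners, 1 rose (20%), RXRA, the partner receptor of LXR (0.52, edgeR adjusted p = 0.0288).

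Of 12 tested further lipid genes known to respond to SREBP, 4 rose and 1 fell with lactate (41.7%). ACSS2, which makes acetyl-CoA from acetate, rose by 0.64 (edgeR adjusted p = 0.00139), MMAB, a cobalamin enzyme whose gene lies beside MVK, by 0.70 (0.0083) and PNPLA3, a lipid droplet hydrolase, by 0.61 (0.00933) on the log2 scale. The median of this list was 0.07, against 0.18 for the 34 members and 0.03 for all tested genes. In the presence of I-BET762, 2 of these 12 rose and 0 fell, and in the isoprenoid branch 1 of 12 rose and 0 fell (16.7% and 8.33%, against 4.9% of all tested genes).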

How the data were processed

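Polyadenylated RNA of DU145 cells was sequenced as single reads of 75 bp from 800 ng of RNA per library, per the labels' protocols. The deposited values are unnormalised read counts for Ensembl genes, with 16 columns, 1 per library. STAR 2.6.1c, DESeq and the builds GRCh38.p12 and hg38 are named in the submitters' processing notes. Which program counted the reads, with which annotation and strand setting, is not given in the sources used here, so overlapping and antisense genes could share counts. Library totals were 10711859 to 17173584 counts.

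Symbols named 58735 of 64792 identifiers. Exon overlap, length and GC content came from GENCODE on GRCh38, and promoters from RefSeq (GRCh38.p14). Genes were kept by filterByExpr (minimum count 10, minimum total 15), scaled by TMM and fitted as 4 group means in edgeR 4.0.16 under R 4.3.3 (glmQLFit, glmQLFTest, two-sided), with 12 residual degrees of freedom. P-values were adjusted over all 14690 genes, and p under 0.05 was called. A common coefficient of variation of 0.183 limits small differences. No 2 libraries of a group agreed within sampling noise (chi-square per gene of 2.03 to 160). The highest values were those of lactate replicate 1 against lactate replicates 2 (145), 3 (160) and 4 (68.8). In the groups other than lactate no pair was above 22.9.

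Alternatives were RLE size factors, no filter, DESeq2 1.42.0, a replicate block, corrections for GC content and exon length (splines with 5 degrees of freedom), fits of only the groups compared, and libraries left out. Leaving out control replicate 2, I-BET762 replicate 2 and lactate replicate 1 together was chosen after seeing the data. Fold changes are on the scale of fitted log2 values. The members and gene lists were chosen with earlier results of these data known. Values per library are given for the members with the smallest p in the lactate comparisons, for those called in any comparison and for SREBF1, SREBF2, INSIG1, MYLIP, ABCA1, ABCG1 and NR1H3; of each further list up to 3 genes with the smallest p are named. The test was checked on simulated data.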

Additional observations from a re-analysis of the deposited data

Results flagged for a closer look

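In 6 of 136 pairs of a member and a group, 1 of the 4 libraries lay far from the other 3, by Dixon's test. Chance flags about 1 in 20 groups of this size. HMGCS1 was at 495.8 CPM in I-BET762 replicate 2, and the other I-BET762 libraries were at 381 to 389.9 CPM. IDI1 was at 448.1 CPM in the same library, below the other I-BET762 libraries, and at 593.6 CPM in control replicate 2, above the other control libraries. These are the libraries whose HEXIM1 level went against their labels. PMVK was at 50.9 CPM in replicate 4 of lactate with I-BET762 and at 40.6 CPM in control replicate 4, in both cases above the rest of its group. CYP51A1 was at 5.5 CPM in control replicate 1, above the other control libraries.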

How the results depend on the processing

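For the edgeR alternatives, here and in the Results, the share of all tested genes called is not given. Their counts of called members therefore describe the settings and not the members. RLE size factors changed no count of called members. Same-numbered libraries correlated at -0.26 to 0.42 in their deviations from the group means, mostly with positive values. Of the 16 libraries, 7 correlated best with their own number. The labels state no block, and whether libraries of the same number belong together cannot be told from these values. With the replicate block, 14 members passed for lactate against control, 6 for lactate with I-BET762 against I-BET762, 3 for I-BET762 against control, 12 for both treatments against control and 0 in the other comparisons. Fitting only the groups compared gave 5, 16, 5 and 19 calls in that order of comparisons. With no filter, 3 passed for lactate with I-BET762 against I-BET762 and 5 for I-BET762 against control. For I-BET762 against control, 0 passed with GC content corrected, with GC content and exon length corrected, and with the replicate block and GC content corrected, and DESeq2 called 7.

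Leaving out 1 library at a time gave 10 to 16 calls for lactate against control (10 without control replicate 1, control replicate 3 or lactate replicate 4), 3 to 12 with I-BET762, 0 to 6 for I-BET762 against control (6 without lactate replicate 1) and 6 to 17 for both treatments against control. It gave 0 for both treatments against lactate and for the interaction, as did every other alternative run. Leaving out control replicate 2 and I-BET762 replicate 2 together gave 3 calls with I-BET762 and 0 for I-BET762 against control. Leaving out lactate replicate 1 as well gave 8, 8 and, for both treatments against control, 17. The causes were not tested.

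For lactate against control the sign turned in at least 1 alternative in 14 of 34 members, 1 of them called (SCAP). Over all alternatives run, IDI1 ranged from -0.02 to 0.32, GGPS1 from -0.12 to 0.30, FDFT1 from -0.37 to 0.20, SQLE from -0.12 to 0.08, LSS from -0.25 to 0.52, SC5D from -0.04 to 0.23, DHCR7 from -0.09 to 0.41, STARD4 from -0.02 to 0.23 and NPC2 from -0.01 to 0.19. The others were SREBF1 (-0.54 with GC correction, -0.41 with GC and length, -0.55 with the block and GC, and -0.03 to 0.23 with single libraries left out), SREBF2 (-0.05 with GC, -0.08 with the block and GC), SCAP (-0.09 with GC, -0.10 with the block and GC), MYLIP (0.01 without control replicate 2, with or without I-BET762 replicate 2; -0.31 to 0.01 over single libraries) and ABCG1 (-0.30 to 0.01 over single libraries). FDFT1, ABCA1, ABCG1 and NR1H3 are limited by low counts.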
